A study of Mus musculus with 21 samples.

Results

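The insulin-like growth factor genes of the mouse gastrocnemius comprised 10 transcripts among the 40853 genes counted: the ligands Igf1 and Igf2, the receptors Igf1r and Igf2r, and the binding proteins Igfbp2, Igfbp3, Igfbp4, Igfbp5, Igfbp6 and Igfbp7. The family was chosen by the group differences of Igfbp5, so those differences are described here and not tested, whereas the other 9 genes entered by their symbols. RNA came from the whole medial belly of the muscle of female C57BL/6NJ mice aged 10 weeks at the start, with 7 mice in each group and 1 poly(A) library per mouse. Active mice ran on a treadmill for 6 weeks, on 5 days a week, in sessions of up to 40 minutes that began with a warm-up and then reached about 70% of their maximal speed. Activity Reduction mice ran in the same way for 4 weeks and then stayed in their cages for 2 weeks. Inactive mice were kept in standard cages for the 6 weeks, although all groups took the maximal running tests, so that every muscle was taken 48 to 72 hours after a run and after several hours of fasting. The comparisons ask whether training, and stopping it, went with a different supply of these transcripts in muscle.

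Insulin-like growth factor 1 is made mostly by the liver under the control of growth hormone and is also made within muscle, where it promotes growth and repair through the tyrosine kinase receptor encoded by Igf1r. The receptor encoded by Igf2r does not signal for growth in the same way: it carries insulin-like growth factor 2 and lysosomal enzymes to lysosomes. The secreted binding proteins hold the growth factors in blood and in the matrix around cells, and proteases release them.

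The libraries held 38482455 to 59785132 counts. The totals were 49284630 to 59785132 in Inactive, 38482455 to 49211581 in Active and 48906675 to 55773226 in Activity Reduction mice. Every Active library was thus smaller than every Inactive one. Counts were normalized for library size, and the part of depth in the group differences was not tested. Muscle transcripts dominated in all of them, with 68045 to 96075 CPM (counts scaled to equal library totals) of Myh4, the fast myosin heavy chain, and 23031 to 29005 CPM of Acta1, skeletal actin. Transcripts that mark hepatocytes were present in all libraries and stood apart in 8 of them. The 24 liver markers summed to 806 to 2433 CPM in those 8 libraries, against 169 to 371 CPM in the other 13. The 8 comprised 1 Inactive, 5 Active and 2 Activity Reduction libraries, so that the division was uneven over the groups. Where these transcripts came from was not tested. As in any bulk sample, fewer cells of a type and less RNA per cell cannot be told apart.

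Igfbp2 and Igfbp5 are neighbours on chromosome 1 (GRCm39) and are transcribed towards each other, with 5456 bp between their 3′ ends. Igfbp2 lies at chr1:72863606-72891634 on the plus strand and Igfbp5 at chr1:72897091-72914043 on the minus strand. The 200 bases just before the annotated start of each gene are shown because these neighbours had the lowest and the highest median level per length, and Igfbp2 was called between libraries with more and fewer liver transcripts whereas Igfbp5 was not. Capitals mark the GC box GGGCGG in the first and, in the second, the letters TATTTAA, which resemble a TATA box.
Igfbp2: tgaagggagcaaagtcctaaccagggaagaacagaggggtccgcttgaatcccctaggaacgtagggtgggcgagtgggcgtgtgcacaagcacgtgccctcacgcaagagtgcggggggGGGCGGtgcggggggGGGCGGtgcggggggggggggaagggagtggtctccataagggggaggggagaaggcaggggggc
Igfbp5: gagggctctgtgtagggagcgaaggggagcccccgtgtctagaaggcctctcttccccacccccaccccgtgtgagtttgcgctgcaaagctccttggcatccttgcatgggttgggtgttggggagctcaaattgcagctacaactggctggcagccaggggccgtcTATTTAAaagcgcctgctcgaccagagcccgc
The Igfbp2 window (chr1:72863406-72863605) had 68.5% G and C and held 2 matches to GGGCGG, beginning at bases -80 and -65 from the start. The Igfbp5 window (chr1:72914044-72914243, printed along the minus strand) had 61.5% G and C and held 1 match to TATTTAA, beginning at base -32. Of 32851 RefSeq promoter windows of the same length, 31% held GGGCGG and 3.22% held TATTTAA on either strand. Neither window matched TATAAA, found in 9.96% of all windows, or the FoxO site TGTTTAC, found in 2.51%.

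Igfbp5 was the most abundant of the 10 transcripts per length. Levels are given as counts divided by each library's size factor (normalized counts) and then per kilobase of annotated exon. The median over the 21 libraries was 2527 for Igfbp5, 584 for Igfbp6, 558 for Igf2r and 284 for Igfbp4. Igfbp5 was above Igfbp6 in 21 of 21 libraries, by a median ratio of 4.67. Igfbp6 and Igf2r could not be placed in order, since Igfbp6 was the higher in only 10 of 21 libraries. Igfbp7 followed at 243, Igf2 at 162 and Igfbp3 at 156. Igf2 was above Igfbp3 in 14 of 21 libraries and Igfbp4 above Igfbp7 in 14 of 21, so neither pair had a firm order. The lowest 3 were Igf1r at 37.9, Igf1 at 32.7 and Igfbp2 at 27.7, and Igf1 exceeded Igfbp2 in 10 of 21 libraries. By the mean, Igfbp2 at 57.1 was above Igf1 at 38.5 and Igf1r at 38.1. The noncoding transcript H19, the imprinted neighbour of Igf2, had 17921 on the same scale.

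**Figure D1:**
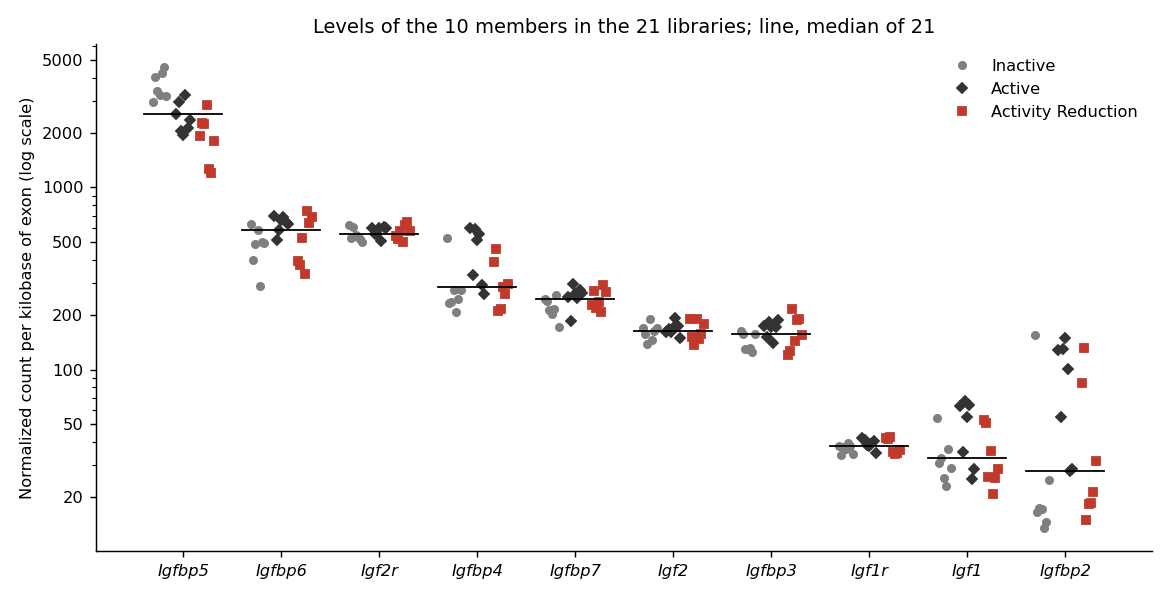
Normalized count per kilobase of exon (log scale) for each member in the 21 libraries, 1 point per mouse, with the 3 groups side by side and a line at the median of all libraries. Igfbp5 sits highest with a median of 2527, and Igf1r, Igf1 and Igfbp2 lie lowest, with medians of 37.9, 32.7 and 27.7.

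None of the 9 genes other than Igfbp5 passed the call rule of an adjusted p below 0.05 with a log2 fold change above 0.25 in Active against Inactive mice in edgeR, where 0% of the 16129 genes tested passed. None passed in Activity Reduction against Inactive mice, where 0.0124% of genes did, or in Activity Reduction against Active mice, where 0% did. At an unadjusted p below 0.05, 5 of the 9 genes other than Igfbp5 were higher in Active than in Inactive mice, beside 10.9% of all genes in either direction. These were Igf1, Igfbp3, Igfbp4, Igfbp6 and Igfbp7. With the liver division in the model 2 were higher, Igfbp3 and Igfbp6, beside 1373 of the 16129 genes in either direction. With the mean log2 level of the liver markers as a covariate 3 were, Igfbp3, Igfbp4 and Igfbp6, beside 1326. In the 13 libraries with fewer liver transcripts 3 were, Igfbp2, Igfbp3 and Igfbp7, beside 1043 of 17175. In the model of groups alone 1 of the 9 was below that p in Activity Reduction against Active mice, Igfbp4, beside 13.3% of all genes. In Activity Reduction against Inactive mice 0 were, beside 7.73%. With the liver division or the liver level in the model 0 of the 9 were higher in Activity Reduction than in Inactive mice. In the 13 libraries with fewer liver transcripts 1 was, Igfbp3, beside 1355 of 17175 genes in either direction. Its log2 fold change there was 0.36 (unadjusted p = 0.00294, adjusted p = 0.358, edgeR). The comparisons share groups, and so these counts are not independent of each other. DESeq2 on the 3 groups called 0 of the 9 in Active against Inactive and in Activity Reduction against Active mice. Among all genes to which it gave an adjusted p, it called 62 of 11826 in the first and 115 of 14544 in the second. In Activity Reduction against Inactive mice it called 21 of 2587. It gave no adjusted p for 8 of the 9 in Activity Reduction against Inactive mice, which therefore could not be called, and it did not call the other, Igf2r.

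**Figure D2:**
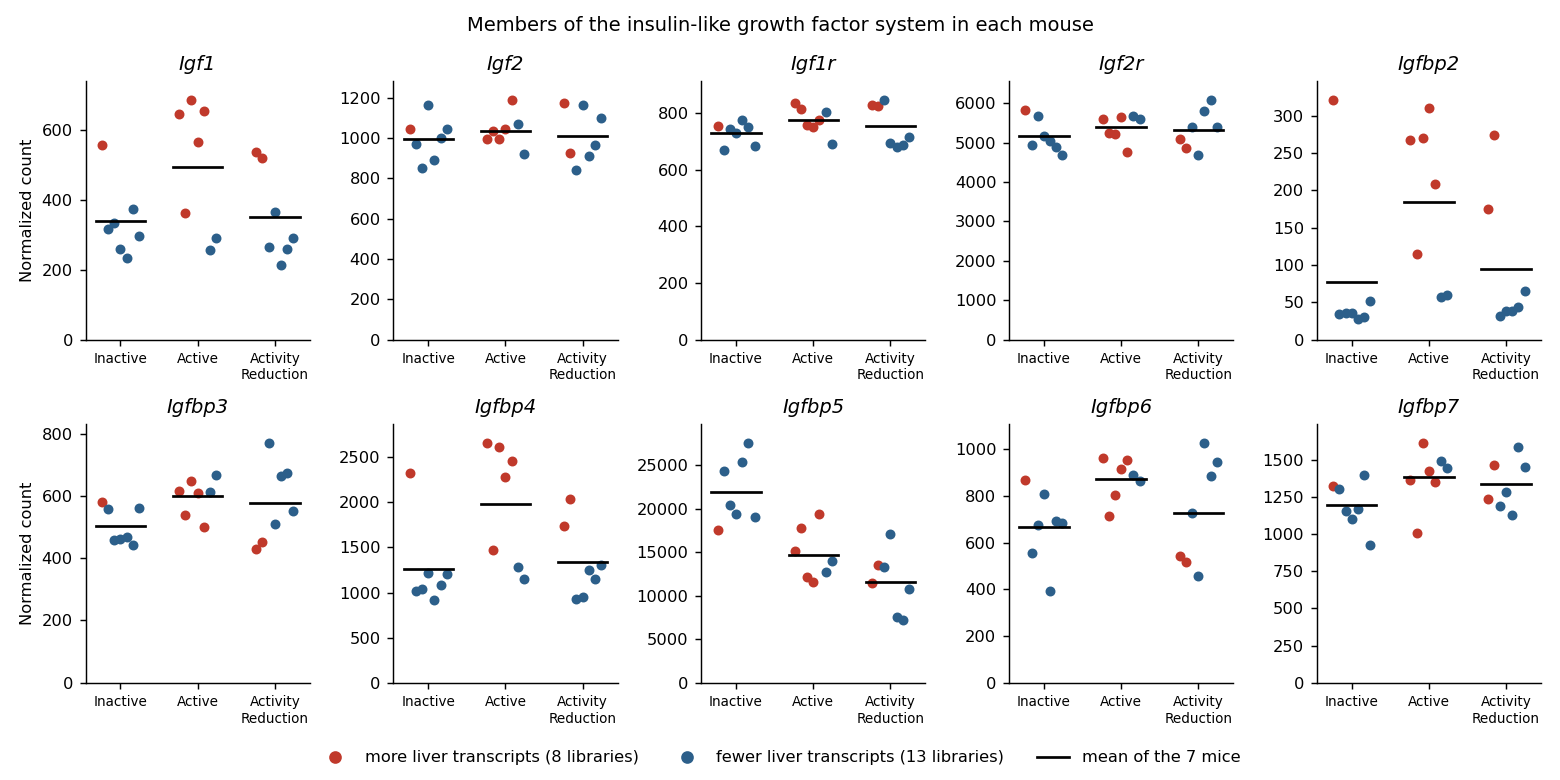
Normalized counts of the 10 members in each mouse by group, with a line at the mean of 7 mice, in red for the 8 libraries with more liver transcripts and blue for the 13 with fewer. For Igf1, Igfbp2 and Igfbp4 the red points lie at the top of each group, and for Igfbp5 the highest Activity Reduction mouse, at 17089, lies under the lowest Inactive mouse, at 17587.

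Igf1 (chr10:87693642-87772904), the growth-promoting ligand, ranged from 234 to 557 normalized counts in Inactive mice with a median of 315.4, from 256 to 685 in Active mice with a median of 565, and from 213 to 538 in Activity Reduction mice with a median of 292. The groups overlapped throughout. The fitted log2 fold change was 0.55 ± 0.25 (SE) in Active against Inactive mice (adjusted p = 0.436, edgeR), 0.05 ± 0.25 in Activity Reduction against Inactive mice (adjusted p = 0.991) and -0.50 ± 0.25 in Activity Reduction against Active mice (adjusted p = 0.396). Within each group the highest values were those of the libraries with more liver transcripts, of which the Inactive group had 1. Igf1 was 363 to 685 in those 8 libraries and 213 to 373 in the other 13, which overlapped only through Active mouse 2, the library whose liver markers lay between the others. With the groups in the model, the libraries with more liver transcripts were 0.98 ± 0.12 higher on the log2 scale (adjusted p = 1.9e-06, edgeR). With the division in the model the difference between Active and Inactive mice was -0.04 (95% interval -0.35 to 0.26). Among the 13 libraries with fewer liver transcripts, the mean was 302 ± 50.4 (SD) in 6 Inactive mice, 273 ± 23.9 in 2 Active mice and 279 ± 55.9 in 5 Activity Reduction mice. No excess of Igf1 in trained mice was measurable in those libraries, of which only 2 were Active.

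Igf2 (chr7:142204503-142220694), the ligand known mainly for fetal growth, varied little. It ranged from 849 to 1164 normalized counts in Inactive mice (median 1001), from 923 to 1187 in Active mice (median 1035) and from 843 to 1173 in Activity Reduction mice (median 963), with all 3 ranges nearly the same. The log2 fold change was 0.06 in Active against Inactive mice (95% interval -0.10 to 0.23) and 0.03 in Activity Reduction against Inactive mice (-0.14 to 0.19). These intervals leave room for differences of up to 0.23 on the log2 scale. Igf2 did not pass the test between libraries with more and fewer liver transcripts either (log2 fold change 0.08, adjusted p = 0.754). Its exons share 58.4% of their length with those of Gm49394 on the same strand, a gene that the count table does not list, and whether reads from it entered the count of Igf2 is not known. H19 had a log2 fold change of -0.11 in Active and -0.13 in Activity Reduction mice against Inactive mice (adjusted p = 0.743 and 0.841).

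The receptors had the smallest spread of the family. Igf1r (chr7:67601518-67883416), which transmits the growth signal, ranged from 671 to 777 normalized counts in Inactive mice (median 744), from 692 to 837 in Active mice (median 775) and from 680 to 846 in Activity Reduction mice (median 716). The coefficient of variation within groups was 5.35% to 9.97%. The log2 fold change was 0.09 in Active against Inactive mice (95% interval -0.03 to 0.22) and 0.05 in Activity Reduction against Inactive mice (-0.07 to 0.18). Igf2r (chr17:12901293-12988614), the lysosomal clearance receptor, ranged from 4687 to 5828 in Inactive mice (median 5032), from 4750 to 5676 in Active mice (median 5599) and from 4694 to 6075 in Activity Reduction mice (median 5383). Its log2 fold change was 0.07 in Active against Inactive mice (-0.06 to 0.19) and -0.02 in Activity Reduction against Active mice (-0.14 to 0.10). Neither receptor gene passed the test between libraries with more and fewer liver transcripts (adjusted p = 0.337 for Igf1r and 0.908 for Igf2r). Over 6.31% of its exon length Igf1r overlaps Pgpep1l, which is encoded by the other strand.

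**Figure D3:**
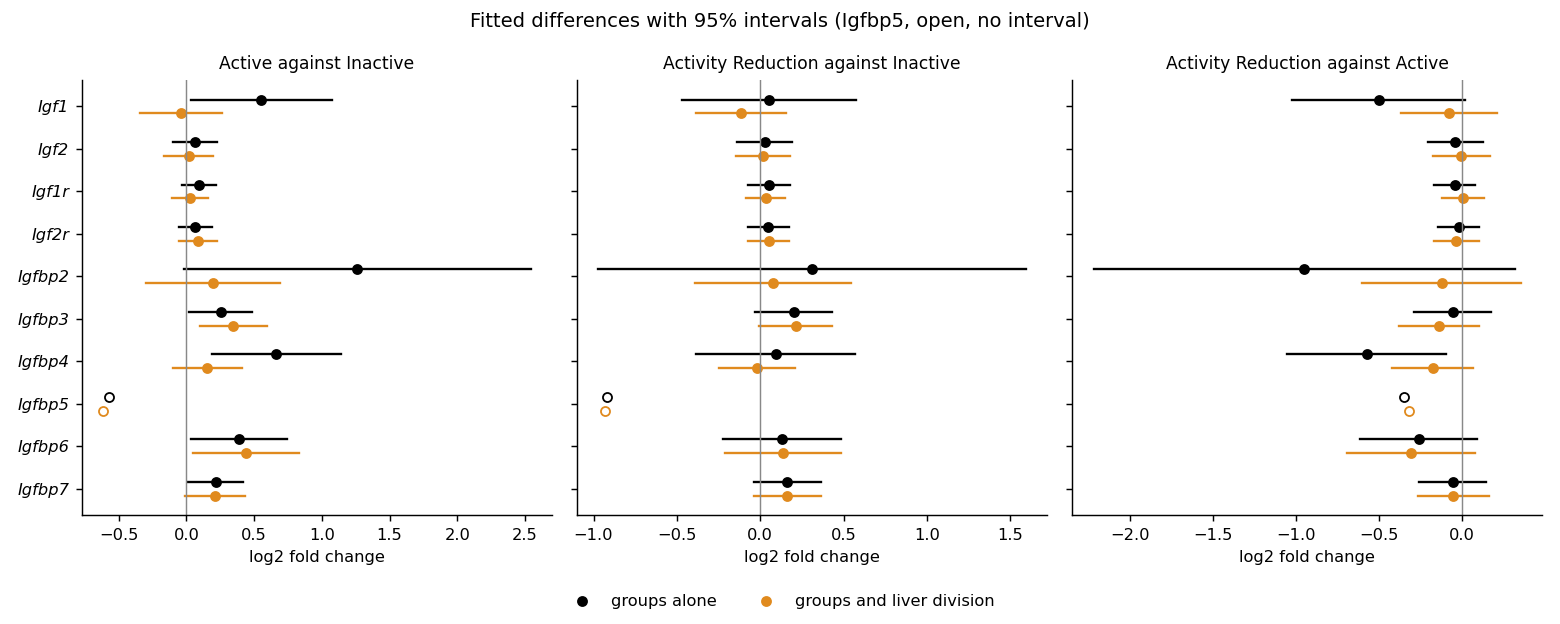
Fitted log2 fold changes of the 10 members in the 3 comparisons, with 95% intervals, from the model of groups alone (black) and the model of groups and liver division (orange). With the division, the Active against Inactive difference moved from 0.55 to -0.04 for Igf1, from 1.26 to 0.20 for Igfbp2 and from 0.66 to 0.15 for Igfbp4, and Igfbp5, drawn as open points with no interval because it chose the family, stayed near -0.6.

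Igfbp5, a binding protein that attaches to extracellular matrix and is made by muscle cells as they differentiate, was lower in both trained groups. It ranged from 17587 to 27523 normalized counts in Inactive mice with a median of 20449, from 11622 to 19428 in Active mice with a median of 14045, and from 7171 to 17089 in Activity Reduction mice with a median of 11502. Every Activity Reduction mouse was under every Inactive mouse, and 2 Active mice reached into the Inactive range. The mean was 33.1% lower in Active and 47.3% lower in Activity Reduction mice than in Inactive mice. As described, the fitted log2 fold changes were -0.57 and -0.92, and with the liver division in the model they were -0.61 and -0.93. Igfbp5 did not pass the independent test between libraries with more and fewer liver transcripts (log2 fold change 0.07, adjusted p = 0.936, 95% interval -0.26 to 0.40).

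Within the Activity Reduction group Igfbp5 was lowest in mice 5, 6 and 7, at 7560, 7171 and 10742 normalized counts, and highest in mouse 4, at 17089. Mice 5, 6 and 7 of this group and Inactive mouse 7 had 2217 to 3650 normalized counts of Foxo1, a transcription factor held in check by growth factor signalling, against 688 to 1490 in the other 17 libraries. Pik3r1, a regulatory subunit of phosphoinositide 3-kinase, was 4117 to 5913 in those 4 mice and 1227 to 2736 in the others. Without the 4 libraries, which were left out after the values were seen, the log2 fold change of Igfbp5 in Activity Reduction against Inactive mice was -0.70, and against Active mice it was -0.09 in place of -0.35. Mice 5, 6 and 7 held the lowest Igfbp5 values of the Activity Reduction group, so the step had to raise the mean of that group. Inactive mouse 7, also left out, had 19002. The step therefore cannot show what part these libraries had in the result, which was not tested.

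The share of Igfbp5 in the summed level per kilobase of the 6 binding proteins was 75.5% ± 6.62 (SD, n = 7) in Inactive mice, 60.3% ± 6.49 in Active mice and 58.8% ± 10.4 in Activity Reduction mice. This share uses the values that chose the family. In the Inactive group it was lowest, at 63.0%, in mouse 1, the Inactive library with more liver transcripts, and the lowest of all 21 libraries was 46.0%, in Activity Reduction mouse 6. In all 21 libraries Igfbp5 was still the most abundant binding protein transcript per length.

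**Figure D4:**
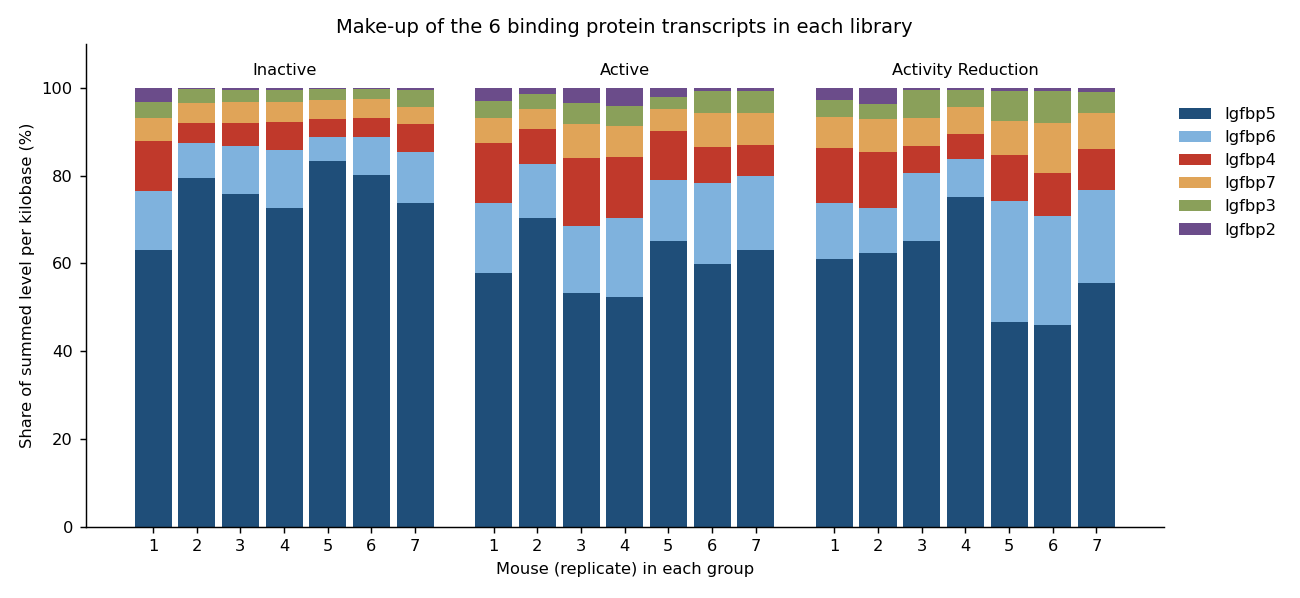
Share (%) of each of the 6 binding protein transcripts in their summed level per kilobase of exon, 1 bar per mouse. The Igfbp5 share falls between 63.0% and 83.2% in Inactive mice and reaches down to 46.0% in the Activity Reduction group.

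Igfbp2, a binding protein secreted in quantity by the liver, had the widest spread of the family. It ranged from 28.1 to 321.1 normalized counts in Inactive mice (median 35.6), from 57.7 to 310 in Active mice (median 209) and from 31.0 to 274 in Activity Reduction mice (median 44.3). The 3 groups overlapped, with 1 high mouse among the Inactive and 2 in the Activity Reduction group. The libraries with more liver transcripts held 114 to 321.1 counts and the others 28.1 to 65.4, without overlap. In edgeR with the groups in the model the difference was 2.46 ± 0.19 on the log2 scale (adjusted p = 7.5e-10). Between groups the log2 fold change was 1.26 ± 0.62 in Active against Inactive mice (adjusted p = 0.462), and 0.20 (95% interval -0.30 to 0.69) once the division was in the model. In the 13 libraries with fewer liver transcripts, the 2 Active mice, at 57.7 and 59.1, were above all 6 Inactive mice, whose highest was 51.6. That difference, 0.70 on the log2 scale, did not pass the test in those libraries (adjusted p = 0.811, edgeR). Over the 12 settings of the comparison, most of them with all 21 libraries, the log2 fold change was 0.20 to 1.74 and the adjusted p 0.245 to 0.865.

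Igfbp4 (chr11:98932064-98945218), an inhibitory binding protein cleaved by pregnancy-associated plasma protein A, ranged from 919 to 2330 normalized counts in Inactive mice (median 1079), from 1152 to 2654 in Active mice (median 2276) and from 932 to 2034 in Activity Reduction mice (median 1255). All groups overlapped. The 8 libraries rich in liver transcripts held 1469 to 2654 counts of it, against 919 to 1308 in the others, again without overlap, a difference of 0.91 ± 0.10 on the log2 scale (adjusted p = 4.6e-07, edgeR). Igf1, Igfbp2 and Igfbp4 were the 3 of 10 members called in that comparison, in which 4.2% of all genes were called. The log2 fold change of Igfbp4 in Active against Inactive mice was 0.66 ± 0.23 (adjusted p = 0.330) and with the division in the model 0.15 (95% interval -0.10 to 0.41). In Activity Reduction against Active mice it was -0.57 ± 0.23 (adjusted p = 0.289) and with the division -0.18.

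**Figure D5:**
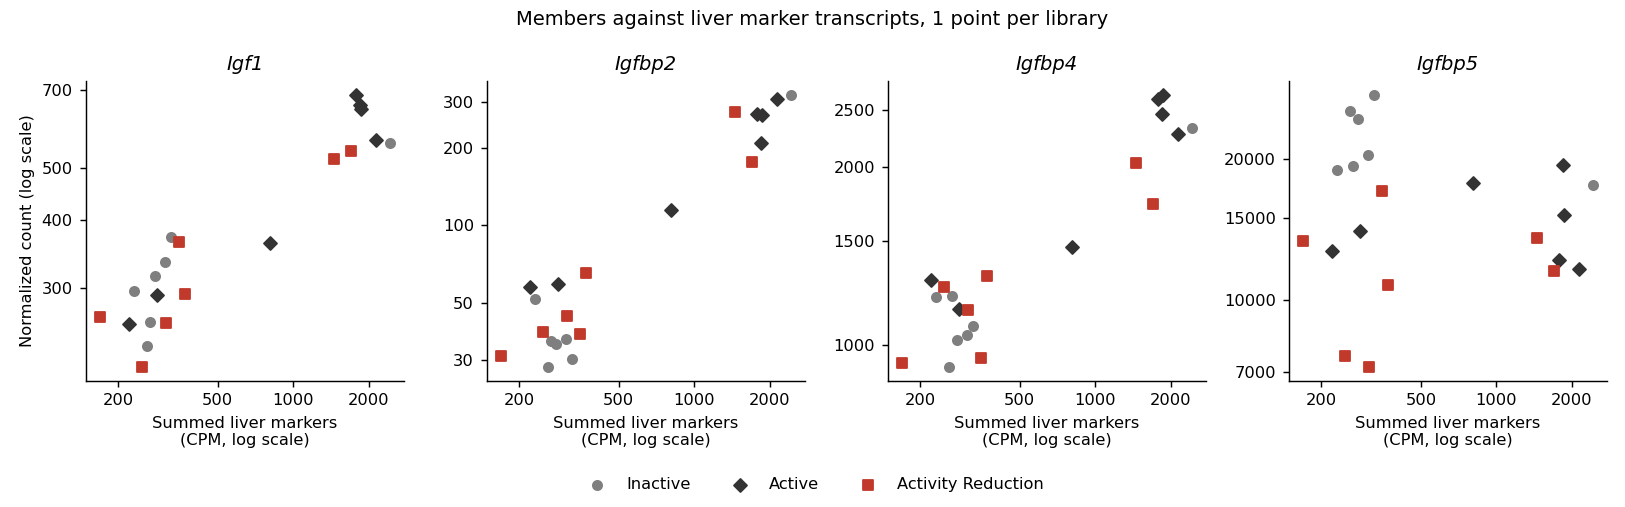
Normalized counts of Igf1, Igfbp2, Igfbp4 and Igfbp5 (log scale) against the summed level of 24 liver markers in CPM (log scale), 1 point per library, with symbols for the 3 groups. Igfbp2 and Igfbp4 are higher in every library at 806 to 2433 CPM of liver markers than in any at 169 to 371 CPM. Igf1 does the same except in the library at 806 CPM, where it is 363, and Igfbp5 shows no such split.

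Within the 8 and within the 13 libraries, none of the 20 relations of members to the mean log2 level of the liver markers passed after adjustment. In the 8 libraries with more liver transcripts Pearson's r was 0.89 for Igfbp2 (permutation p = 0.0104, adjusted over 20 relations 0.175), 0.81 for Igfbp4 (p = 0.0175, adjusted 0.175) and 0.82 for Igf1 (p = 0.0469, adjusted 0.234). Spearman's rho was 0.69, 0.60 and 0.52, with permutation p of 0.0694, 0.132 and 0.197. Without the 2 libraries farthest from the median liver level, r was 0.44, 0.57 and 0.39. Leaving them out also narrows the range of the liver level, so the fall alone cannot show that these relations rest on those libraries. In the 13 libraries with fewer liver transcripts r was 0.14 for Igfbp2, 0.10 for Igfbp4 and 0.46 for Igf1 (permutation p = 0.660, 0.756 and 0.110). Igfbp3 ran the other way there, with r = -0.58 (permutation p = 0.0361, adjusted 0.234) and rho = -0.53 (adjusted 0.366), and r was -0.38 without the 2 libraries farthest from the median.

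Igfbp3, Igfbp6 and Igfbp7 had higher values in Active than in Inactive mice, with or without the liver division in the model. Igfbp3 (chr11:7156086-7164179), the main carrier of the growth factors in blood, ranged from 443 to 582 normalized counts in Inactive mice (median 467), from 500 to 668 in Active mice (median 614) and from 429 to 769 in Activity Reduction mice (median 550). Its log2 fold change in Active against Inactive mice was 0.25 ± 0.11 (adjusted p = 0.426, edgeR), and an Active mouse was above an Inactive one in 43 of 49 pairs. Igfbp6 (chr15:102052697-102057953), which prefers insulin-like growth factor 2, ranged from 395 to 870 in Inactive mice (median 683), from 713 to 964 in Active mice (median 890) and from 459 to 1026 in Activity Reduction mice (median 726). Its log2 fold change was 0.39 ± 0.17 (adjusted p = 0.423), with the Active mouse above in 44 of 49 pairs. Igfbp7 (chr5:77493130-77555931), a related protein of low affinity found around blood vessels, ranged from 930 to 1397 in Inactive mice (median 1169), from 1006 to 1611 in Active mice (median 1423) and from 1129 to 1588 in Activity Reduction mice (median 1282). Its log2 fold change was 0.22 ± 0.10 (adjusted p = 0.431), with the Active mouse above in 41 of 49 pairs. With the division in the model these differences were 0.35, 0.44 and 0.21 (unadjusted p = 0.00786, 0.0291 and 0.0642, edgeR), and none of the 3 genes passed the test between libraries with more and fewer liver transcripts (adjusted p = 0.539, 0.905 and 0.985). In Activity Reduction against Inactive mice, in the model of groups alone, the log2 fold changes of Igfbp3, Igfbp6 and Igfbp7 were 0.20, 0.13 and 0.16 (adjusted p = 0.722, 0.934 and 0.745, edgeR). Over 13.7% of its exon length Igfbp7 overlaps Polr2b, again on the other strand, and the strand setting of the counting is not known.

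Of the markers of other cell types 0 were called between the groups, although some were below an unadjusted p of 0.05. At an unadjusted p below 0.05, 4 of 9 fibroblast markers (median log2 fold change 0.27), 4 of 10 endothelial markers (median 0.05) and 2 of 6 macrophage markers (median 0.36) were higher in Active than in Inactive mice and 0 were lower, beside 10.9% of all genes in either direction. Of 7 tendon and 6 mural markers 0 were below that p, with medians of 0.36 and 0.12. In Activity Reduction against Active mice 8 of 9 fibroblast markers (median -0.39), 3 of 10 endothelial markers (median -0.14) and 2 of 6 macrophage markers (median -0.40) were lower, beside 13.3% of all genes, and 1 tendon marker was lower and 1 higher. The fibroblast, endothelial and macrophage lists had 0 markers below that p in Activity Reduction against Inactive mice, beside 7.73% of all genes. The fibroblast markers summed to 179 to 333 CPM in Inactive, 293 to 464 CPM in Active and 220 to 299 CPM in Activity Reduction mice. The endothelial markers summed to 287 to 347 CPM, 313.9 to 405 CPM and 278 to 327 CPM, and the macrophage markers to 17.4 to 30.5 CPM, 20.05 to 32.1 CPM and 12.4 to 26.5 CPM. None of the markers of these 3 lists was at 0 in any library, and their part in the values of Igfbp3, Igfbp4, Igfbp6 and Igfbp7 was not tested.

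The values of Igfbp6 in the Activity Reduction group lay apart in the mice high in Foxo1. It was 885 to 1026 normalized counts in Activity Reduction mice 5, 6 and 7, the mice high in Foxo1, and 459 to 726 in the other 4 mice of the group. Inactive mouse 7, also high in Foxo1, did not stand apart in this way: it had 683, the median of its group. Without the 4 libraries high in Foxo1 the log2 fold change of Igfbp6 in Activity Reduction against Active mice was -0.64 (adjusted p = 0.121) in place of -0.26 (adjusted p = 0.532). Since the Activity Reduction mice left out held the highest Igfbp6 values of their group, the step had to lower its mean. This move therefore does not show what part those libraries had. The same step moved Igfbp2 from -0.95 to -0.51 (adjusted p = 0.840). All 4 libraries left out had fewer liver transcripts, so the step also changed the balance of the liver division between the groups. The part of that balance in these moves was not tested.

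The remaining carriers of the growth factors in blood followed the liver transcripts too. Igfbp1, a short-lived hepatic binding protein that lies 3539 bp from Igfbp3 on chromosome 11, had 0 to 42 raw counts and was under the count filter of edgeR. Its mean was 19.7 ± 12.1 normalized counts (SD) in the 8 libraries rich in liver transcripts, against 3.99 ± 2.06 in the remaining 13, and DESeq2 called the difference (log2 fold change 2.38, adjusted p = 8.1e-05). Igfals, the acid-labile subunit that stabilizes the complex with Igfbp3, was 0.45 ± 0.10 higher on the log2 scale (adjusted p = 0.00577, edgeR). Igfbpl1 had at most 4 raw counts in a library. The list of liver markers contained neither these carriers nor any of the 10 members.

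Of 34 further genes of the pathway, 31 were tested in edgeR and 0 were called in any comparison of the groups. DESeq2 on the 3 groups called 0 of the 27 to which it gave an adjusted p in Active against Inactive mice. It called 0 of 29 in Activity Reduction against Active mice and 0 of 13 in Activity Reduction against Inactive mice. Over all genes it called 62 of 11826, 115 of 14544 and 21 of 2587, in that order. In Activity Reduction against Inactive mice Akt1 had an adjusted p of 0.0489 in DESeq2. Its log2 fold change was -0.15, under the fold needed for a call. At an unadjusted p below 0.05 in edgeR, 3 of the 31 (9.68%) differed in Active against Inactive mice, beside 10.9% of all genes, 5 (16.1%) in Activity Reduction against Inactive mice, beside 7.73%, and 5 (16.1%) in Activity Reduction against Active mice, beside 13.3%. The median log2 fold change of the 17 genes of receptor signalling was -0.02 in Active against Inactive mice, where the median of all genes was 0.01. The 3 in Active against Inactive mice were Stat5b, which carries the growth hormone signal to the nucleus, and the kinases Akt1 and Akt2, all with lower values in Active mice and with log2 fold changes of -0.18, -0.09 and -0.12 (adjusted p = 0.309, 0.453 and 0.266). In Activity Reduction against Inactive mice Jak2 was higher and Cish, Irs1, Grb10 and Akt1 were lower at that level. Cish, an inhibitor induced by growth hormone signalling, had 65 to 426 normalized counts in Inactive mice, 39 to 360 in Active mice and 47 to 158 in Activity Reduction mice, and its log2 fold change was -1.27 ± 0.46 in Activity Reduction against Inactive mice (adjusted p = 0.495). Irs1, the adaptor that couples the receptors to phosphoinositide 3-kinase, had a log2 fold change of -0.35 in Activity Reduction against Inactive and -0.37 against Active mice (adjusted p = 0.644 and 0.340). In Activity Reduction against Active mice Jak2, Stat5b, Akt2 and Eif4ebp1 were higher and Irs1 was lower.

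The receptors and proteases at either end of the pathway gave small or imprecise differences. Ghr, the growth hormone receptor, had log2 fold changes of 0.01 in Active and 0.02 in Activity Reduction mice against Inactive mice, and Insr, the insulin receptor, 0.03 and 0.00. Socs2, an inhibitor of growth hormone signalling, had 0.05 and -0.04, and Irs2 -0.04 and -0.12. Among genes that act on the binding proteins, Htra1, a secreted serine protease, had 0.08 and 0.22, and Pappa, the protease that cleaves Igfbp4, 0.23 and -0.37 with standard errors of 0.36. Stc2, which inhibits that protease, had -0.11 and 0.50 with standard errors of 0.49 and 0.48, and was 1000 to 1645 normalized counts in the 4 libraries high in Foxo1 against 182 to 937 in the other 17. Pappa2 had 0 to 11 normalized counts.

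After each group's mean was removed, the members were compared in pairs over the 13 libraries with fewer liver transcripts. Of 45 pairs 4 had an unadjusted permutation p below 0.05 for Pearson's r and 0 passed after adjustment, against 1 for Spearman's rho. The closest was Igfbp4 with Igfbp6, at r = 0.83 (permutation p = 0.00133, adjusted 0.0599) and Spearman's rho = 0.87 (permutation p = 0.00074, adjusted 0.0333), and r was 0.90 without the 2 libraries farthest from the median of Igfbp4. Igfbp5 ran against Igfbp6, with r = -0.73 (permutation p = 0.0129, adjusted 0.193) and rho = -0.74 (adjusted 0.439). Over all 21 libraries and 16128 genes, the genes whose values around the group means were most like those of Igfbp5 were Steap3 (r = 0.87), Fam83d (r = 0.82), Gm52678 (r = 0.82), Trim55 (r = 0.81) and Gm28979 (r = 0.80), given as a description of shared libraries with no test. Their rho was 0.78 to 0.82. The group means of Fam83d were 186 normalized counts in Inactive, 116 in Active and 127 in Activity Reduction mice, and those of Steap3 were 1746, 1737 and 1609.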

How the data were processed

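Per the submitters' processing notes the authors used fastp for trimming, STAR for alignment to GRCm39, featureCounts for counting and DESeq2. The strand setting and versions were not given in the sources used here. The deposited raw counts per gene were used. The deposited table named as normalized held the same values in all 857913 cells, so it was not used separately. Groups came from the labels. All 21 libraries were fitted in 1 model with edgeR 4.0.16 (quasi-likelihood, TMM, filterByExpr, Benjamini-Hochberg over 16129 genes), with DESeq2 1.42.0 as an alternative and to give size factors. A gene was called at an adjusted p under 0.05 and a log2 fold change over 0.25. Standard errors were taken from the F statistic. Libraries were divided at the largest gap (1.12 on the log2 scale) in the mean log2 CPM (pseudocount 0.01) of 24 liver markers. Correlations used log2(normalized count + 1), centred on group means for pairs and likeness to Igfbp5, with 100000 permutations. Gene positions and exon lengths came from GENCODE for GRCm39. Fits were tested on simulated data. Mice are separate animals. Alternatives covered the test, the samples fitted, normalization, filter, replicate block and liver transcripts.

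The members and gene lists were chosen with earlier results of these data known. Named were the 10 members, listed carriers, proteases and signalling genes, pathway genes below an unadjusted p of 0.05, the 5 tested genes most like Igfbp5, and genes of muscle and liver that check the libraries. The 23 adipocyte, satellite, Schwann and muscle fibre markers, not described in the text, had 0 genes called in any comparison of the groups. At an unadjusted p below 0.05 there was 1 (4.35%) in Active against Inactive mice, beside 10.9% of all genes. In Activity Reduction against Inactive mice there were 4 (17.4%), beside 7.73%, and in Activity Reduction against Active mice 0, beside 13.3%. The 4 included 3 of the 9 muscle fibre markers, 2 higher and 1 lower. No other gene matched 10% or more of a member's longest transcript, except Gm49394 for Igf2.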

Additional observations from a re-analysis of the deposited data

Results flagged for a closer look

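Among 25 genes of the pathway, 74 groups of 7 mice with unlike values were examined for a mouse far from the rest by Dixon's test, with a critical value of 0.568 for the gap over the range, and 12 values, from 9 mice, stood apart. About 1 group in 20 would by chance. Inactive mouse 1 was the highest of its group for Igf1 (557 normalized counts, next 373), Igfbp2 (321.1, next 51.6), Igfbp4 (2330, next 1213) and Igfbp1 (37.5, next 6.55), and it is the 1 Inactive library with more liver transcripts. Activity Reduction mouse 1, also a library with more liver transcripts, was the highest of its group for Igfbp1 (19.7, next 7.89). Inactive mouse 7, high in Foxo1, was the highest of its group for Stc2 (1429, next 565).

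The other values apart were those of Active mouse 1 for Pappa (50.6 normalized counts), Active mouse 2 for Pappa2 (10.6), Inactive mouse 6 for Ghr (10702) and Inactive mouse 2 for Grb10 (2658). Igfbpl1 was found in a single mouse of the Active group (4.15, mouse 7) and of the Activity Reduction group (2.10, mouse 4). Igfbp5 had no mouse apart in any group.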

How the results depend on the processing

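Of 362 log2 fold changes of the 10 members recomputed under the alternatives, 344 kept their direction and their side of the threshold, or for Igfbp5 between groups stayed within 1 standard error. In DESeq2 on the 3 groups 8 more had no adjusted p and were left out. Igf1, Igfbp2 and Igfbp4 were called between libraries with more and fewer liver transcripts under all alternatives run. In some comparisons of the groups the count of members called changed from 0 to 1, the member being Igfbp5. In Active against Inactive mice this was with DESeq2 on the 2 groups, which called 77 of 13032 genes with an adjusted p. In Activity Reduction against Inactive mice it was with DESeq2 on the 3 groups (21 of 2587) and on the 2 groups (43 of 16664). There it was also with library totals (5 of 16129), no filter on low counts (2 of 28675) and the liver level as a covariate (3 of 16129). Since Igfbp5 chose the family, this is not support for it.

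With the liver division as a factor the direction turned for Igf1 in Active against Inactive (-0.040) and Activity Reduction against Inactive mice (-0.12), for Igfbp4 in Activity Reduction against Inactive mice (-0.020) and for Igf1r in Activity Reduction against Active mice (0.0076). With the liver level as a covariate it turned for Igf1 in Activity Reduction against Inactive mice (-0.077). In libraries with fewer liver transcripts it turned for Igf1 in the 3 comparisons (-0.14, -0.12 and 0.020) and for Igf1r in Activity Reduction against Inactive mice (-0.0017). Library totals turned Igf2 in Activity Reduction against Inactive mice (-0.016). Without the 4 libraries high in Foxo1, an alternative chosen after seeing the data, it turned for Igf2r (-0.071) and Igfbp6 (-0.25) in Activity Reduction against Inactive mice and for Igf1r against Active mice (0.036). For Igfbp6 that step left out the highest values of the Activity Reduction group, so a move downward was fixed in advance. None of the values that turned was called, and the cause was not tested.

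The replicate numbers of the labels did not pair the mice: 7 of 21 pairs of same-numbered mice had a correlation over 0.1 (lowest -0.22, median 0.01, highest 0.47), and 7 of 42 best matches were to the own number. With the replicate block the count of members called was 0 in each comparison of the groups and 3 between liver divisions, where Igfbp5 (-0.069) and Igfbp6 (0.047) turned direction. The order of the members per length kept all 10 places with the longest transcript or library totals, and the Igfbp5 share of the summed median levels was 54.8%, 52.0% and 54.9%. The low counts of Igfbp2 and Igfbp1, from 30 and 0 raw counts upward, limit what can be said of them in the libraries with fewer liver transcripts, of which 2 were Active.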
